A study of Mus musculus with 8 samples.

Results

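Bcl11a, Sox6, Zbtb7a and Myb, 4 transcription factor genes known for their part in the switch between globin genes, were followed in E14.5 fetal livers of Eklf knockout (KO) and wild type (WT) mouse embryos. They are 4 of the 18193 gene symbols on the array, and were taken with every probe set that the platform annotation ties to their symbol alone, 17 of 45101 probe sets. Both groups were embryos at E14.5, with 4 KO and 4 WT fetal livers, 1 array for each. The KO embryos carried Eklf-/-, a homozygous knockout in B6 lines that were made with an engineered Eklf locus on a BAC and E2A-Cre mice, and the WT embryos carried no knockout. RNA came from the whole organ without sorting or culture, so fewer cells of a type and less RNA per cell cannot be told apart. The titles of the KO arrays share a code and those of the WT arrays share a different one. The labels do not state what it marks, and whatever it marks cannot be told apart from genotype either.

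EKLF, encoded by Klf1, is an erythroid activator that binds CACCC-type sequences and is required for adult beta-globin expression. BCL11A is a zinc finger repressor that silences embryonic globin genes in mouse and fetal globin genes in human red cell precursors, largely through the NuRD corepressor. SOX6, an HMG box protein, silences the mouse embryonic gene Hbb-y, ZBTB7A (LRF) is a POZ zinc finger repressor that acts beside BCL11A in human cells, and MYB keeps blood progenitors proliferating and lowers fetal globin in human cells. EKLF is known to activate BCL11A and ZBTB7A in red cell precursors, and how the genes of all 4 factors read without EKLF is the question of the comparison.

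The promoters of the 4 genes are shown because EKLF acts through the sequence CCNCNCCC, and that of Hbb-y because it is a target of the repressors. Each runs from 250 bases before to 50 bases after a start site in RefSeq (GRCm38.p6), 5′ to 3′ along the gene, with CCNCNCCC on either strand in capitals for the 4 genes and TGACCA, the sequence read by BCL11A in the human fetal globin promoters, in capitals for Hbb-y. The positions are chr11:24080445-24080744 (+ strand) for Bcl11a, chr7:116030998-116031297 (- strand) for Sox6, chr10:81136021-81136320 (+ strand) for Zbtb7a, chr10:21160935-21161234 (- strand) for Myb and chr7:103853158-103853457 (- strand) for Hbb-y.
Bcl11a: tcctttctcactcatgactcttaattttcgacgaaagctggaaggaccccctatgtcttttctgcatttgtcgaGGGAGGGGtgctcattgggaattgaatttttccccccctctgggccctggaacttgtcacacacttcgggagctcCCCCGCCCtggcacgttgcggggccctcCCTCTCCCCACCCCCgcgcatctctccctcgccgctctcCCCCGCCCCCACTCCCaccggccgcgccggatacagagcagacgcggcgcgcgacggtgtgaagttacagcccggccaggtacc
Sox6: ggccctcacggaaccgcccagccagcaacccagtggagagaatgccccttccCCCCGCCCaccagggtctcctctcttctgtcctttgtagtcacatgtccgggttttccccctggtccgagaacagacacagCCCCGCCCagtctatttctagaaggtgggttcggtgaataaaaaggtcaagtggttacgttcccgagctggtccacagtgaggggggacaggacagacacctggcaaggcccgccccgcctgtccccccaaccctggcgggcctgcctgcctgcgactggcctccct
Zbtb7a: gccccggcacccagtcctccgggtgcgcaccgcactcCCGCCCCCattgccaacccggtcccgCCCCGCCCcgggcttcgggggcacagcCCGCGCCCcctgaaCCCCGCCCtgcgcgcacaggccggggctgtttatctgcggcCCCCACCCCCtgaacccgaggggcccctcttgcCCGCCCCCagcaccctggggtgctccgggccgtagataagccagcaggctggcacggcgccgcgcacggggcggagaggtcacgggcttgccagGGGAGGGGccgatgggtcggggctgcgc
Myb: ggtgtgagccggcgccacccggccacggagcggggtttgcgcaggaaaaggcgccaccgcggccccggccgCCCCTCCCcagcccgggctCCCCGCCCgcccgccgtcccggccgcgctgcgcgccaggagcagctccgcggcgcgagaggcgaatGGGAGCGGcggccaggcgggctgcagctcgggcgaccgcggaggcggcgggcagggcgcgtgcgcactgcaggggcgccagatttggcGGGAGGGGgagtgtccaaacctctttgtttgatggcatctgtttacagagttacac
Hbb-y: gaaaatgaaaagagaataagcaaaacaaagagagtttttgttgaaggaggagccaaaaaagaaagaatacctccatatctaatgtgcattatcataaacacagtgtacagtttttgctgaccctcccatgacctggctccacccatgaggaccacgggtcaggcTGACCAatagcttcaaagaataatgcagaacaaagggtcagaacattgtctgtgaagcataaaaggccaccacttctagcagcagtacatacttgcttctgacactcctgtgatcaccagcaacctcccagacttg

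CCNCNCCC, searched on both strands with overlapping matches counted, stood 8 times in the Bcl11a promoter, 8 times in that of Zbtb7a and 4 times in that of Myb. Several matches share bases, as in the run of 3 in Bcl11a between positions -73 and -59 from the start site. At least 1 match was held by 49.5% of the 32851 promoters of this length, at least 4 by 12.5% and at least 8 by 2.4%. These shares were not matched for GC content, which was 63% in the Bcl11a promoter, 63.3% in that of Sox6, 77.7% in that of Zbtb7a and 75% in that of Myb. The Bcl11a, Zbtb7a and Sox6 genes begin before these windows, at 24076564, 81135225 and (- strand) 116040776, so the start sites used lie inside these genes. Sox6 has 6 such promoters, and the one shown, the second along the gene, held 2 matches (30.6% of all promoters held at least 2). The fourth held 1 and the other 4 held 0. The one shown thus held the most matches. The sources used here do not say which of the 6 is active in fetal liver. AGATAA, the GATA factor sequence, stood 2 times in the Zbtb7a promoter and 1 time in Sox6 promoter 4 (11.2% of promoters held at least 1). In Hbb-y, TGACCA stood 1 time, at -86 to -81 (13.6% of promoters), and AACAAAG, a sequence of the type read by SOX factors, 2 times. AACAAAG also stood 1 time in the Myb promoter and 1 time each in Sox6 promoters 1, 3 and 4 (5.85% of promoters held at least 1). AACAAT, another sequence of this type that was searched, stood 0 times in Hbb-y and 2 times in Sox6 promoter 5 (10.7% of promoters). These matches describe the sequence only, and no binding was measured on these arrays.

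Klf1 itself was 9.81-fold lower in KO livers, with a log2 difference (KO minus WT) of -3.29 and an adjusted p = 5.9e-07 from limma. The sources used here do not say whether this probe set reads the part of Klf1 that was removed. The log2 signals of KO arrays correlated with each other at r of 0.956 to 0.978, those of WT arrays at 0.974 to 0.978, and those of a KO and a WT array at 0.859 to 0.909, over the tested probe sets. WT replicate 1 stood apart in sex-linked genes, with Xist at 13.03 against 6.17 to 6.84 in the other WT arrays and 5.37 to 6.09 in the KO arrays. For Actb, the log2 signal at the 3-prime end minus that at the 5-prime end, a sign of RNA quality, was 0.49 to 0.61 in KO arrays and 0.76 to 0.93 in WT arrays. For Gapdh the same measure was -0.23 to -0.16 in KO arrays and -0.20 to -0.08 in WT arrays, so the groups overlapped. The part of RNA quality in the results below was not tested.

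Of the 17 probe sets, 14 had a KO or WT mean above a signal of 100 and were tested, and all 14 passed that minimum in both groups. The other 3, 1 of Bcl11a and 2 of Zbtb7a, were below it in both. Of the 14, 9 were lower in KO, 0 were higher and 5 were not called (limma, Benjamini-Hochberg adjusted p under 0.05 over 23379 probe sets). Over all tested probe sets 17.7% were called lower, 34.4% higher and 52.2% in either direction. The same 9 had every KO array below every WT array, which held for 17.4% of all tested probe sets (32.4% had every KO array above), and in the other 5 the groups overlapped. The 4 genes differed among themselves, in that all 4 probe sets of Sox6, 4 of 6 of Bcl11a and the 1 of Zbtb7a were lower, while 0 of 3 of Myb were.

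**Figure D1:**
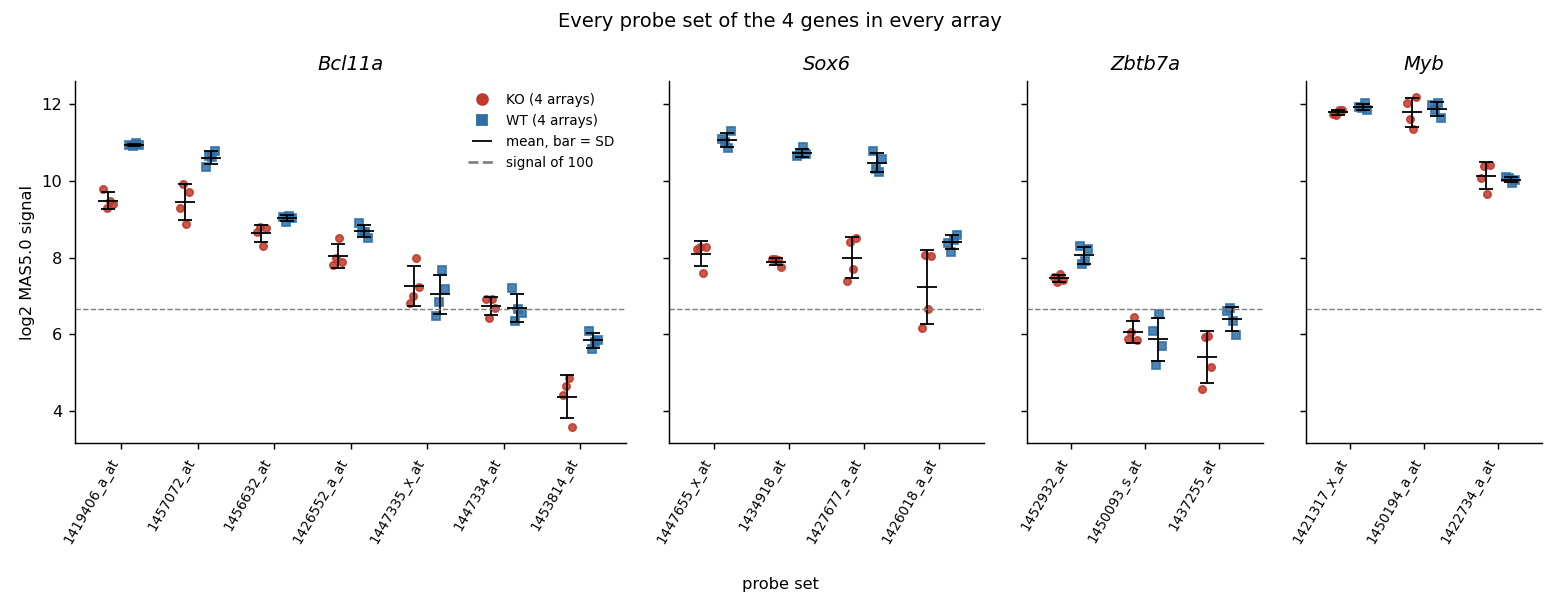
Log2 MAS5.0 signal (y axis) of all 17 probe sets (x axis) of Bcl11a, Sox6, Zbtb7a and Myb, each point an array, KO left of WT, with mean and SD (n = 4 each) and a dashed line at a signal of 100. The KO arrays lie below all WT arrays in the 4 Sox6 probe sets and the groups overlap in the 3 Myb probe sets.

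Sox6 had the largest difference of the 4. On its brightest probe set, 1447655_x_at, the log2 signal was 8.22, 8.28, 7.61 and 8.28 in KO replicates 2 to 5, against 11.09, 11.03, 10.86 and 11.31 in WT replicates 1 to 4. All KO arrays were far below the lowest WT array, at 12.7% of the WT level. The mean was 8.10 ± 0.33 in KO and 11.07 ± 0.19 in WT (SD, n = 4 each), a log2 difference of -2.98, SE 0.18, 95% interval -3.38 to -2.57, adjusted p = 7.1e-06 from limma, or 7.86-fold lower. Of 11275 genes tested on their brightest probe set, 30 had a larger fall.

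The second Sox6 probe set, 1434918_at, gave the tightest values, 7.95, 7.96, 7.93 and 7.75 in KO and 10.65, 10.71, 10.88 and 10.69 in WT. Its log2 difference was -2.84, SE 0.10, adjusted p = 1.3e-06 from limma, or 7.14-fold lower. 1427677_a_at read 7.39, 8.41, 7.71 and 8.50 in KO and 10.80, 10.32, 10.23 and 10.57 in WT, a log2 difference of -2.48, SE 0.26, adjusted p = 1.2e-04 from limma. Here KO replicates 3 and 5 stood above KO replicates 2 and 4, and all remained below WT.

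The dimmest Sox6 probe set, 1426018_a_at, showed a smaller difference, again with KO replicates 3 and 5 above KO replicates 2 and 4. It read 6.17, 8.08, 6.64 and 8.04 in KO and 8.38, 8.15, 8.46 and 8.60 in WT, so that the higher KO arrays came close to the lowest WT array. The log2 difference was -1.16, SE 0.42, adjusted p = 0.043 from limma, and the call was lost under 10 of 22 alternatives, among them leaving out any 1 WT array or KO replicate 2 or 4.

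Bcl11a was lower on its 4 brightest probe sets. On the brightest, 1419406_a_at, the log2 signal was 9.79, 9.29, 9.47 and 9.39 in KO and 10.94, 10.92, 10.99 and 10.95 in WT, where the WT arrays lay almost on one value. The mean was 9.49 ± 0.22 in KO and 10.95 ± 0.030 in WT (SD, n = 4 each), a log2 difference of -1.46, SE 0.12, 95% interval -1.74 to -1.19, adjusted p = 3.4e-05 from limma, or 2.76-fold lower. Of the 11275 genes, 211 had a larger fall. The size depended on the choices more than the call did, with -0.71 under hybridisation control scaling and -0.57 for the mean of its 6 tested probe sets (adjusted p = 0.00088 from limma).

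On 1457072_at Bcl11a read 9.28, 9.91, 8.86 and 9.71 in KO and 10.38, 10.65, 10.63 and 10.79 in WT, with a wider spread in KO. The log2 difference was -1.17, SE 0.22, adjusted p = 0.0025 from limma, or 2.25-fold lower. It was -0.42 and not called with hybridisation control scaling (adjusted p = 0.065 from limma). On 1426552_a_at the signal was 7.82, 7.98, 8.51 and 7.89 in KO and 8.89, 8.67, 8.68 and 8.52 in WT, and KO replicate 4 all but met the lowest WT array. The log2 difference was -0.64, SE 0.17, adjusted p = 0.012 from limma.

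1456632_at of Bcl11a read 8.66, 8.79, 8.30 and 8.78 in KO and 9.05, 8.92, 9.10 and 9.04 in WT. This was a difference of -0.40, SE 0.13, adjusted p = 0.030 from limma, lost when any of WT replicates 1, 3 or 4 was left out (adjusted p = 0.065 to 0.073). The call was also lost with no filter (adjusted p = 0.098 from limma). The methods' t-test did not give it after Benjamini-Hochberg adjustment (adjusted p = 0.075). With hybridisation control scaling the difference of 1456632_at was 0.35 (adjusted p = 0.028 from limma), and that of 1426552_a_at 0.11. The remaining 2 tested probe sets were dim and their groups overlapped. 1447335_x_at ranged over 6.80 to 7.997 in KO and 6.48 to 7.68 in WT (difference 0.21, 95% interval -0.50 to 0.93, adjusted p = 0.58 from limma). 1447334_at ranged over 6.42 to 6.92 in KO and 6.34 to 7.21 in WT (difference 0.05, 95% interval -0.41 to 0.50, adjusted p = 0.86 from limma). The seventh, 1453814_at, was not tested, with 3.58 to 4.84 in KO and 5.61 to 6.07 in WT, all under a signal of 100.

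Zbtb7a had a smaller difference than the brightest probe sets of Sox6 and Bcl11a. On 1452932_at, its single tested probe set, the log2 signal was 7.49, 7.36, 7.58 and 7.42 in KO and 8.29, 7.84, 7.90 and 8.22 in WT, and the KO arrays all lay below the lowest WT array. The mean was 7.46 ± 0.095 in KO and 8.06 ± 0.22 in WT (SD, n = 4 each), a log2 difference of -0.60, SE 0.13, 95% interval -0.90 to -0.31, adjusted p = 0.0047 from limma, or 1.52-fold lower. A larger fall was found in 1380 of the 11275 genes. When the hybridisation controls were used to scale the arrays, the difference was 0.15 (adjusted p = 0.46 from limma), so that its direction rests on the scaling.

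The other Zbtb7a probe sets had KO and WT means below a signal of 100 and were not tested. 1450093_s_at ranged over 5.84 to 6.45 in KO and 5.19 to 6.51 in WT, and 1437255_at over 4.57 to 5.96 in KO and 5.97 to 6.67 in WT. On the first the groups overlapped and on the second they did not.

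Myb was bright in both groups and passed the test on 0 of its 3 probe sets. On the one with the highest mean, 1421317_x_at, the log2 signal was 11.75, 11.71, 11.85 and 11.85 in KO and 11.92, 11.90, 12.04 and 11.85 in WT, with the groups meeting at 11.85. The mean was 11.79 ± 0.071 in KO and 11.93 ± 0.083 in WT (SD, n = 4 each), a log2 difference of -0.14, SE 0.094, 95% interval -0.35 to 0.08, adjusted p = 0.25 from limma.

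1450194_a_at of Myb read 12.04, 11.61, 11.36 and 12.18 in KO and 11.98, 11.87, 12.03 and 11.65 in WT, with a difference of -0.08 (95% interval -0.52 to 0.35, adjusted p = 0.73 from limma). 1422734_a_at read 10.08, 10.40, 9.66 and 10.41 in KO and 10.09, 10.07, 9.94 and 10.03 in WT, with a difference of 0.10 (95% interval -0.28 to 0.49, adjusted p = 0.64 from limma). On both, the KO arrays spread wider than the WT arrays and lay on either side of them. The direction of Myb depended on the scaling, since 1421317_x_at was at 0.01 after quantile normalization, at -0.40 (adjusted p = 0.0071 from limma) with a common 75th percentile and at 0.61 (adjusted p = 0.0019 from limma) with a common hybridisation control signal.

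**Figure D2:**
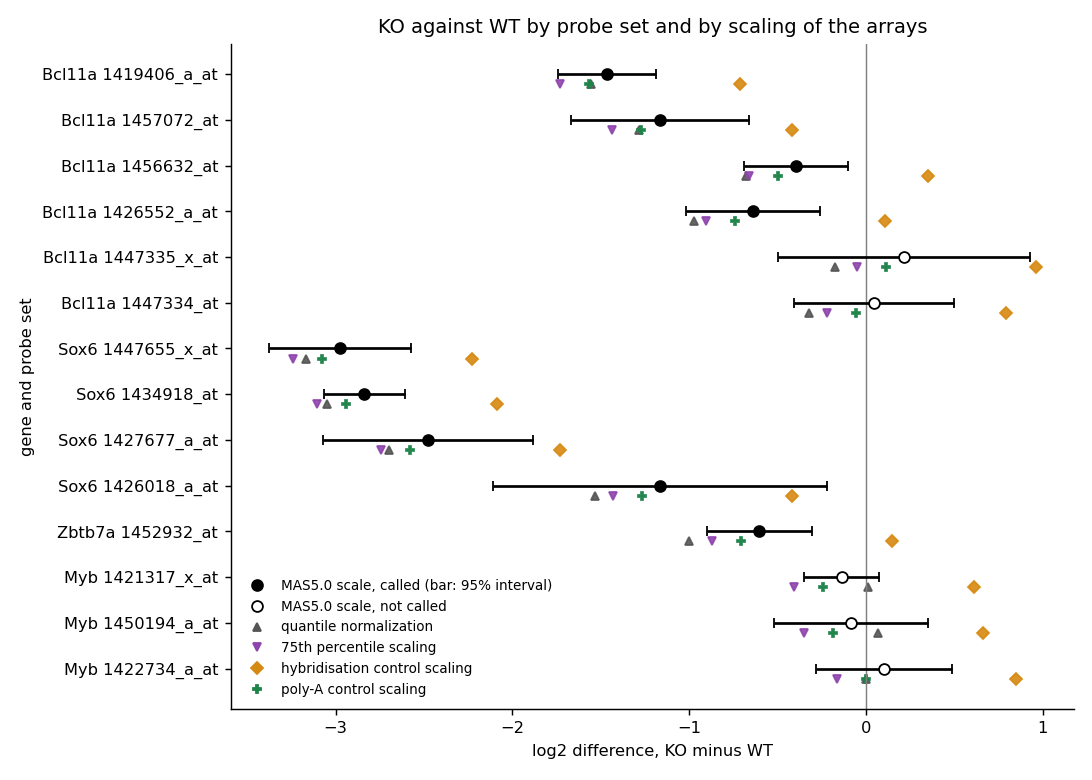
KO minus WT difference in log2 signal (x axis) for the 14 tested probe sets (y axis) with 95% intervals, filled where called, and below each the value under 4 other scalings of the arrays. Bcl11a 1419406_a_at (-1.46) and Sox6 1447655_x_at (-2.98) stay left of 0 under each scaling, while Zbtb7a (-0.60) and the Myb probe sets have values on both sides.

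A ratio of 2 probe sets within an array does not change when the whole array is multiplied by a constant, and sets one gene's difference against another's. Its level has no meaning, since probe sets differ in brightness, and the values compared are those of KO and WT arrays for the same ratio. All 6 ratios between the brightest probe sets of the 4 genes had groups that did not overlap, against 44.9% of all pairs of the 11275 genes. Each had p = 0.029 in an exact permutation test over 70 assignments (two-sided, the smallest 4 arrays against 4 allow), and p = 0.029 after adjustment over the 6. The adjustment leaves the value unchanged when all 6 share it. Being formed from 4 profiles, the 6 ratios are not independent of each other.

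Sox6 over Myb was -3.54, -3.43, -4.25 and -3.58 in KO and -0.83, -0.87, -1.19 and -0.54 in WT, a difference of -2.84. Bcl11a over Myb was -1.96, -2.42, -2.38 and -2.46 in KO and -0.98, -0.98, -1.05 and -0.90 in WT, a difference of -1.33. Zbtb7a over Myb was -4.27, -4.36, -4.27 and -4.43 in KO and -3.63, -4.06, -4.14 and -3.63 in WT, a difference of -0.47. Quantile normalization, which is no such constant, gave -3.18, -1.56 and -1.01 for Sox6, Bcl11a and Zbtb7a over Myb. Relative to Myb, then, the brightest probe sets of Sox6, Bcl11a and Zbtb7a were all lower in KO, in that order of size. The order of Bcl11a and Zbtb7a depended on the probe sets. Averaged over its tested probe sets, Bcl11a was at -0.57, against -0.60 for Zbtb7a (log2 differences, not ratios). Zbtb7a over Myb missed the adjusted threshold without any 1 of the KO arrays (adjusted p = 0.057 to 0.086, exact permutation tests). In that ratio the KO arrays left still lay below every WT array.

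Among the 3 lower genes, Sox6 was lower relative to both others. Bcl11a over Sox6 was 1.57, 1.01, 1.87 and 1.11 in KO and -0.15, -0.11, 0.13 and -0.36 in WT, a difference of 1.51. Sox6 over Zbtb7a was 0.73, 0.93, 0.03 and 0.85 in KO and 2.80, 3.18, 2.95 and 3.09 in WT, a difference of -2.37. Bcl11a over Zbtb7a was 2.30, 1.94, 1.90 and 1.97 in KO and 2.65, 3.08, 3.09 and 2.73 in WT, a difference of -0.86 (-0.55 after quantile normalization).

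**Figure D3:**
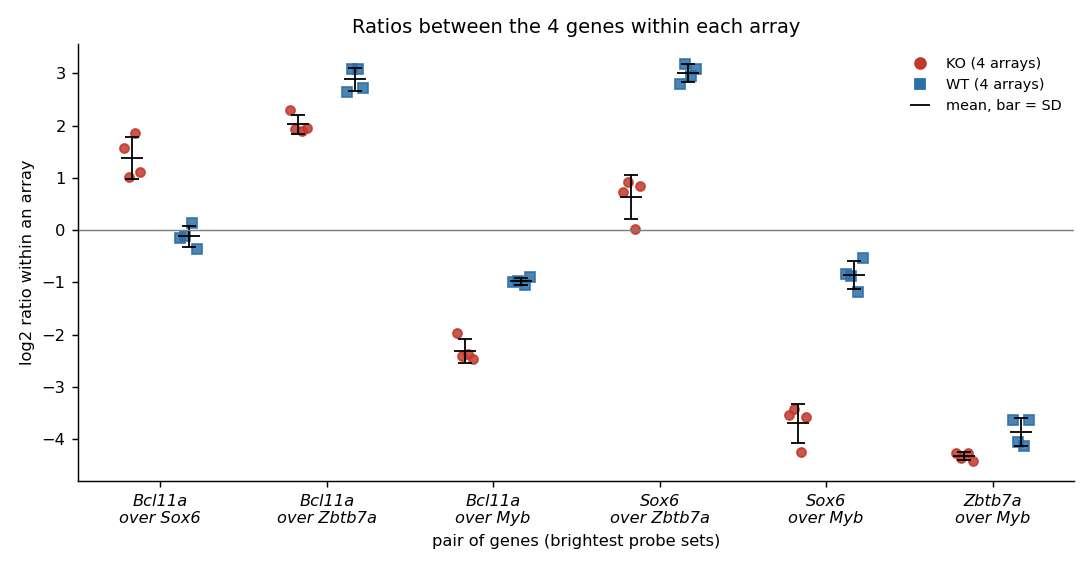
Log2 ratio within an array (y axis) for the 6 pairs of genes (x axis), each point an array, KO left of WT, with mean and SD (n = 4 each). KO and WT arrays do not overlap in any pair, and on this MAS5.0 scale the difference is smallest for Zbtb7a over Myb (-0.47) and largest for Sox6 over Myb (-2.84).

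Ratios between probe sets of the same gene show how far the probe sets differ. Of 24 such pairs, 10 had groups that did not overlap (7 of 15 in Bcl11a, 3 of 6 in Sox6 and 0 of 3 in Myb), against 39% of all 15035 same-gene pairs on these arrays, and 0 passed after adjustment over the 24 (smallest adjusted p = 0.069, exact permutation test, while 10 had an unadjusted p under 0.05). The 10 stood at 0.029, the smallest p this test allows, and 10 at that value cannot pass over 24 pairs. The count of 0 therefore cannot be set against the 6 ratios between genes. The 3 Sox6 pairs were those of 1426018_a_at with each of the others, with differences of -1.81, -1.67 and -1.31. In Bcl11a, the ratio of 1419406_a_at differed between KO and WT by -1.07 against 1456632_at and by -0.82 against 1426552_a_at.

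By likeness of profile over the 8 arrays (root mean square difference of log2 values centred on each probe set's mean, among 11292 genes), the nearest to Bcl11a were Yod1, a deubiquitinase gene (0.061), Slbp, which encodes the histone mRNA stem-loop binding protein (0.066), and Dpy19l1 (0.079). The nearest to Sox6 were Brpf3, a bromodomain gene (0.20), Tspan8, a tetraspanin gene (0.22), and Tac2, a tachykinin gene (0.22). Zbtb7a had Lrba (0.081), Haus5, an augmin subunit gene (0.082), and Commd9 (0.097), and Myb had Cpt2, a mitochondrial fatty acid enzyme gene (0.043), Rnf103 (0.045) and Nudt21, a cleavage factor gene (0.046). These distances are descriptions, with no test.

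The measured globin genes went in different directions. The adult beta-globin gene Hbb-b2 read 34.9-fold lower in KO (log2 difference -5.12, adjusted p = 1.2e-05 from limma). Hba-a2, an adult alpha-globin gene, was at -2.80 with a KO mean below a signal of 100, and Hba-a1 was below it in both groups. Their WT means were 8.60 and 4.68 on the log2 scale, against 12.68 for the embryonic Hba-x. The sources used here do not say how much of the adult alpha-globin RNA these probe sets read. Of the embryonic genes, Hbb-bh1 was higher (0.74, adjusted p = 0.0066 from limma), also under all 4 other scalings, while Hbb-y was lower (-0.45, adjusted p = 0.017, but at 0.11 when quantile normalized and at 0.30 when scaled to the hybridisation controls). Hba-x was at -0.09 and missed the threshold (adjusted p = 0.69 from limma).

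Subunits of NuRD, the corepressor that BCL11A and ZBTB7A recruit, went both ways. Of 14 tested, 2 were higher, 6 lower and 6 not called, with a median of -0.20, against a median of 0.06 over all 11275 genes, of which 46.5% were called, 25.5% higher and 21% lower. Mta3 (1.25) and Gatad2b (0.86) were higher. Rbbp4 (-0.75), Hdac2, a histone deacetylase gene (-0.72), and Chd4, the remodelling ATPase gene (-0.56), were lower, but 1 other probe set of Rbbp4 and 1 of Chd4 were called higher. With hybridisation control scaling the median was 0.55, with 9 higher and 0 lower, and Rbbp4, Hdac2 and Chd4 were not called.

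Of 11 other corepressors linked to globin genes, 5 were higher and 2 lower (25.5% and 21% of all genes). The median of the 11 was 0.15 (-0.11 with 75th percentile scaling, 1 higher and 4 lower). Prmt5, an arginine methyltransferase gene (1.06), Ehmt1, a histone H3 methyltransferase gene (0.52), and Kdm1a, which encodes the demethylase LSD1 (0.48), were higher. Dnmt1, the maintenance DNA methyltransferase gene (-0.37), and Trim28 (-0.35) were lower, and neither was called after quantile normalization or with poly-A control scaling. With hybridisation control scaling Trim28 was higher (0.39, adjusted p = 0.030 from limma). Prmt5 stayed called higher under the 4 other scalings, while Ehmt1 and Kdm1a were not called with 75th percentile or poly-A control scaling, nor Ehmt1 after quantile normalization (adjusted p = 0.066 from limma).

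Among 13 tested regulators upstream of the switch or of the fetal programme, 4 were higher and 1 lower (2 and 3 with 75th percentile scaling, 13 and 0 with hybridisation control scaling). Over all 11275 genes the shares on the MAS5.0 scale were 25.5% higher and 21% lower. Nfix, a nuclear factor I gene, was 3.91-fold higher (log2 difference 1.97, adjusted p = 2e-05 from limma) on its brightest probe set, and of its 4 tested probe sets 3 were called higher and 1 lower. Hmga2, a chromatin protein gene of fetal cells and a target of LIN28 and let-7, was higher on all 3 of its probe sets (1.19 on the brightest), and Arid3a was at 0.59 (called on the MAS5.0 scale and with hybridisation control scaling). Eif2ak1, the heme-regulated kinase gene, was lower (-0.35), with 1 of its 4 probe sets called higher, and at 0.40 (adjusted p = 0.020 from limma) with hybridisation control scaling. Lin28a did not pass the test (0.31, adjusted p = 0.22 from limma).

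Of 9 erythroid partner factors 6 were lower, Klf1 itself among them, and 1 higher (21% and 25.5% of all genes). The median of the 9 was -0.86. Scaled to the hybridisation controls, 4 were lower and 3 higher, with a median of -0.11. Besides Klf1, Klf3, a repressor gene of the same family (-2.16), and Lmo2, which encodes a bridging subunit of the TAL1 complex (-1.89), had the largest falls, and both stayed called lower under the 4 other scalings. Zfpm1, which encodes the GATA1 partner FOG1, was higher (0.44), though not called with 75th percentile or poly-A control scaling.

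Of 12 genes linked to MYB, 5 were higher (25.5% of all genes), 2 lower (21%) and 5 not called, with a median of 0.24. With 75th percentile scaling 3 were higher and 4 lower (median -0.02), and with hybridisation control scaling 10 and 1 (median 0.99). The higher ones included Gfi1, a repressor gene of myeloid progenitors (1.48), Mpo, the myeloperoxidase gene (1.02), and Cd34, a progenitor surface gene (0.75). Lmo2 and Ccne1, the cyclin E1 gene (-1.15, not called with hybridisation control scaling), were lower. Among the paralogues of the 4 factors, Zbtb7b was higher (1.14, not called after quantile normalization) and Mybl2, the B-MYB gene of dividing cells, lower (-1.32). Sox5 (0.97, adjusted p = 0.056, its WT mean under 100 in signal) and Sox13 (0.54, adjusted p = 0.42) did not pass limma's test, and Bcl11b, Zbtb7c and Mybl1 were below a signal of 100 on every array.

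Signals of cell type marker genes differed between KO and WT too. Of 12 listed erythroid markers, 8 had a probe set of their symbol alone. All 8 were lower on the brightest (21% of all genes were), with a median of -0.97. Their summed signal was 51017 to 55034 in KO and 119504 to 126418 in WT. Of the 3 tested probe sets of Slc4a1, 2 were called lower and 1 higher. On brightest probe sets, 1 of the 8, the adult beta-globin gene Hbb-b2, had a larger difference than Sox6, and 2 had a larger one than Bcl11a. All 8 had a larger one than Zbtb7a and Myb. With hybridisation control scaling the erythroid median was -0.22, with 4 of 8 lower. The part of the erythroid change in the results of the 4 genes was not tested.

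Bcl11a is also a gene of early B cells. For the counts below, 25.5% of all 11275 genes were called higher and 21% lower on the MAS5.0 scale. Of the early lymphoid and B cell markers, Cd79a, Ebf1, Rag2 and the T cell gene Cd3e were below a signal of 100 on every array. These markers summed to 533 to 895 in KO and 744 to 1069 in WT, with 1 of 4 tested lower (Igll1, a surrogate light chain gene, -2.43, with a KO mean below a signal of 100 and groups that overlapped). Myb is a gene of stem and progenitor cells, of whose 10 tested markers 4 were higher and 0 lower, with sums of 5089 to 7334 in KO and 3996 to 4128 in WT. Megakaryocyte markers were higher in 6 of 8 and lower in 0 (30412 to 39274 in KO, 24927 to 28239 in WT), and endothelial markers in 8 of 10 and lower in 0 (8487 to 10428 in KO, 6751 to 7116 in WT). Of 10 granulocyte and monocyte markers 2 were higher and 0 lower (53130 to 128346 in KO, 51752 to 60192 in WT). Hepatocyte markers were lower in 6 of 9 and higher in 1 (149071 to 184362 in KO, 228168 to 253269 in WT), and of 9 macrophage markers 1 was lower and 0 higher (8768 to 16790 in KO, 12058 to 14491 in WT), with Siglec1 and Cd163 below 100 on every array. After quantile normalization 0 hepatocyte markers were lower and 1 higher, and 4 endothelial markers were higher. Stem and progenitor markers were higher in 2 of 10 after quantile normalization or 75th percentile scaling and in 9 with hybridisation control scaling. Of the macrophage markers 5 were lower with 75th percentile scaling, while 5 were higher and 1 lower with hybridisation control scaling. Of the granulocyte and monocyte markers 8 were higher with hybridisation control scaling. What these cells add to the signals of the 4 genes was not tested.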

How the data were processed

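Total RNA of 4 KO and 4 WT E14.5 fetal livers was hybridized to Affymetrix mouse arrays. The authors deposited MAS5.0 signal intensities on a linear scale, with a trimmed mean of 500.003 to 500.004 on every array (2% left out at each end). The notes name MAS5 and R 3.0.2. Labels do not say whether embryos shared a litter. Intensities were log2-transformed with no pseudocount, and probe sets with a KO or WT mean above log2 of 100 were tested in limma 3.58.1 (lmFit and eBayes, genotype only, R 4.3.3) with Benjamini-Hochberg adjustment. The step was tested on simulated data. A gene was represented by its probe set with the highest mean. Ratios were compared by exact permutation. Precision is limited by the 4 arrays of each group.

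The members and lists were chosen with earlier results of these data known. Named were all member probe sets, measured globins, Klf1, per list up to 3 called genes with the largest rise and 3 with the largest fall, and 3 nearest profiles; Lin28a, Sox5, Sox13, Igll1 and marker genes below 100 were added after their values were seen. Alternatives were 4 other scalings, pseudocounts of 16 and 64, other filters, limma's trend and robust options, the methods' t-test, a replicate block, the mean of a gene's probe sets and leaving out each array. Promoters are RefSeq's.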

Additional observations from a re-analysis of the deposited data

Results flagged for a closer look

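On the brightest Sox6 probe set, 1447655_x_at, KO replicate 4 read 7.61 on the log2 scale, apart from the other KO arrays at 8.22 to 8.28. On 1434918_at of Sox6, KO replicate 5 read 7.75, apart from the others at 7.93 to 7.96. Both KO arrays were set apart by the gap to their nearest neighbour as a share of the group's range. Of 48 groups of 4 arrays examined, these 2 passed, and chance passes about 1 in 20. Without single arrays the differences were -3.05 to -2.81 and -2.87 to -2.79.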

How the results depend on the processing

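The calls of Sox6 1447655_x_at and Bcl11a 1419406_a_at held under all 23 alternatives, with differences of -3.24 to -2.23 and -1.73 to -0.57. The smallest of these for Bcl11a is the mean of the Bcl11a probe sets. Of 12195 calls over all tested probe sets 66% were higher in KO, against 51.1% after quantile normalization, 41.9% with 75th percentile scaling and 96.8% with hybridisation control scaling. The last 2 shift every difference by -0.27 and 0.75, and poly-A control scaling by -0.10.

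With hybridisation control scaling 18742 probe sets were called and 4 of the 14 regulator probe sets were lower, Zbtb7a was at 0.15, Myb 1421317_x_at at 0.61, Myb 1450194_a_at at 0.66, and Bcl11a 1456632_at and 1426552_a_at at 0.35 and 0.11. After quantile normalization Myb 1421317_x_at was at 0.010, Myb 1450194_a_at at 0.071, Bcl11a 1447335_x_at at -0.17 and 1447334_at at -0.32, and the Myb ratios 1421317_x_at and 1450194_a_at over 1422734_a_at at 0.0084 and 0.069. With 75th percentile scaling Myb 1421317_x_at was called at -0.40, Myb 1422734_a_at was at -0.17, and Bcl11a 1447335_x_at and 1447334_at at -0.052 and -0.22. With poly-A control scaling Bcl11a 1447334_at was at -0.056 and Myb 1422734_a_at at -0.0018. The methods' t-test, unadjusted, put Myb 1421317_x_at (-0.14) past the threshold, though not after Benjamini-Hochberg adjustment. The cause of these changes was not tested, beyond the shifts that the scalings make by construction.

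Leaving out 1 array gave 10625 to 12100 calls and 7 to 9 lower regulator probe sets. Ranges that crossed 0 were -0.032 to 0.43 for Bcl11a 1447335_x_at, -0.068 to 0.22 for 1447334_at, -0.21 to 0.062 for Myb 1450194_a_at, and, among ratios, -0.20 to 0.39 for Bcl11a 1447335_x_at over 1447334_at, -0.26 to 0.036 for Sox6 1447655_x_at over 1434918_at and -0.22 to 0.056 for Myb 1421317_x_at over 1450194_a_at. Zbtb7a over Myb ranged over -0.56 to -0.39 and lost its call without any 1 KO array, though the groups still did not overlap.

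Replicate numbers 2, 3 and 4 occur in both groups, but the deviations of same-numbered arrays correlated at -0.0008, -0.08 and -0.03, so that the numbers are not taken to pair the embryos. With the replicate block 7780 probe sets were called, 6 regulator probe sets were called lower, and the 3 no longer called were Zbtb7a 1452932_at at -0.51 (adjusted p = 0.053 from limma) and Bcl11a 1456632_at and 1426552_a_at at -0.44 and -0.52 (adjusted p = 0.104 and 0.121 from limma).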
